A study of Mus musculus with 4 samples.

Results

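The striated muscle miRNAs, or myomiRs, are the miR-1, miR-133, miR-206, miR-208 and miR-499 families. They were read here in mouse aorta, a tissue of smooth muscle. Members were taken by name, as a list of 10 mature strands, and all 10 had an entry among the 1152 entries of each deposited table. The tissue came from 12-week wild type C57BL/6 mice, a common inbred laboratory strain, and the study asked how aortic microRNAs differ in a mouse model of chronic kidney disease (CKD) with calcified vessels. It comprised 2 CKD and 2 Sham libraries, each made from 4 pooled samples, so the animals within a pool cannot be told apart. In the labelled model both poles of the left kidney were cut away, the right kidney was removed 1 week later, and a 2% phosphate diet with 0.45% NaCl in the water followed for 4 weeks. The labels give this treatment in the same words for the CKD and the Sham libraries, so what the Sham mice received is not known here.

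MicroRNAs are short RNAs that guide Argonaute proteins to messenger RNAs and lower their output, mainly through bases 2 to 8 of the miRNA, the seed. The miR-1 and miR-133a hairpins are transcribed together in heart and skeletal muscle under muscle transcription factors such as MEF2 and SRF, and miR-1 is known for favouring muscle differentiation. In cultured vascular smooth muscle cells, miR-133 has been described as a brake on proliferation and on the switch to an osteoblast-like state. The miR-208 and miR-499 strands lie in introns of myosin heavy chain genes and take part in the choice of myosin isoforms in heart and slow muscle.

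The mature sequences below show how the families are tied by their seeds, which are in capitals, and are RefSeq entries on GRCm38.p6 written 5′ to 3′. Of the 10 members, 6 matched that table by name. miR-1a-3p, miR-1a-2-5p, miR-133a-3p and miR-133a-5p are named without a sequence.
miR-206-3p: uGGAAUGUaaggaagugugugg
miR-133b-3p: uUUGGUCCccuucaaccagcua
miR-208a-3p: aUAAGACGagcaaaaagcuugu
miR-208b-3p: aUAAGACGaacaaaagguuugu
miR-499-5p: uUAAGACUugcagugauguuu
miR-1a-1-5p: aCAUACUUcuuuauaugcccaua
miR-206-3p has the seed of miR-1, and miR-133b-3p has that of miR-133a-3p, from which it is known to differ at its 3′ end. miR-208a-3p and miR-208b-3p share their seed and 19 of 22 bases, with the substitutions G10A, A16G and C18U from the first to the second, counted from the 5′ end. miR-499-5p matches miR-208a-3p from base 2 to base 7 and departs at base 8. The sources used here do not say how reads that match several of these strands were assigned, so values of miR-133a-3p against miR-133b-3p and of miR-208a-3p against miR-208b-3p are uncertain to that extent.

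In the GRCm38 annotation some of the hairpins lie within other genes and some outside any. Mir1a-1 (chromosome 2, 180389048 to 180389124, plus strand) and Mir133a-2 (chromosome 2, 180398379 to 180398482, plus strand) lie 9254 bp apart, outside any other annotated gene. Mir1a-2 (chromosome 18, 10785481 to 10785552) and Mir133a-1 (chromosome 18, 10782909 to 10782976) lie on the minus strand, in introns of Mir133a-1hg and opposite to introns of Mib1. Mir206 (chromosome 1, 20679010 to 20679082) and Mir133b (chromosome 1, 20682769 to 20682887), both on the plus strand, lie 3686 bp apart and overlap exons of the noncoding gene Gm28653. Mir208a (chromosome 14, 54949060 to 54949142, minus strand) lies in an intron of Myh6, Mir208b (chromosome 14, 54975700 to 54975776, minus strand) in an intron of Myh7, and Mir499 (chromosome 2, 155622880 to 155622958, plus strand) in an intron of Myh7b, each on the strand of its host gene. Myh6, Myh7 and Myh7b encode myosin heavy chains of heart and slow muscle.

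The deposited values are CPM, the reads of an entry per 1000000 reads of its library, and whole reads were recovered from them. The CKD libraries held 17532748 and 16658810 reads and the Sham libraries 17520690 and 16878392, so 3 reads correspond to between 0.171 and 0.180 CPM. The smooth muscle markers of the labelled tissue, miR-143-3p and miR-145a-5p of the cluster that maintains the contractile state, were abundant in every library. miR-143-3p alone made up 41.1% (Wilson 95% interval 41.11% to 41.16%) and 40.8% (40.76% to 40.81%) of reads in the CKD libraries, against 79.8% (79.80% to 79.84%) and 72.5% (72.50% to 72.54%) in the Sham libraries. Such intervals cover counting error only. The median log2 difference of the 479 entries with a mean of at least 1 CPM was 1.34 on the deposited scale. That is 2.53-fold higher in CKD. CPM shares a fixed total, and its part in this rise was not tested. Differences of the more abundant members are therefore given on the deposited scale and again after trimmed-mean (TMM) scaling, and those of the rarest as ratios on both scales. TMM scaling sets values relative to most entries and brought that median to -0.00083. A fall of miR-143-3p and a rise of the other entries cannot be told apart on the deposited scale. In a bulk tissue, fewer cells of a type and less RNA per cell cannot be told apart either.

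The 10 striated muscle miRNAs together were a trace of the aortic pool. They took 0.133% (Wilson 95% interval 0.132% to 0.135%) and 0.106% (0.105% to 0.108%) of reads in the CKD libraries, against 0.0547% (0.0537% to 0.0559%) and 0.0673% (0.0661% to 0.0686%) in the Sham libraries. Their summed level was 1334 and 1061 CPM in CKD and 547 and 673 CPM in Sham, and the groups did not overlap. An exact two-sided permutation test of the summed CPM gave p = 0.33, the smallest value that 2 libraries against 2 allow. With TMM scaling the order turned round, with 738 and 639 scaled CPM in CKD, against 1144 and 967 in Sham (exact permutation p = 0.33). The direction of the summed level therefore depends on the scaling.

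miR-133a-3p carried nearly all of this signal and stood far above the other members in every library. It held 1189 and 951 CPM in the CKD libraries, against 499.7 and 609 CPM in the Sham libraries. Both CKD values lay above both Sham values on this scale. Its share of all member reads was 89.1% and 89.6% in CKD and 91.3% and 90.5% in Sham. It ranked 51st and 55th of the 1152 entries in CKD and 48th and 49th in Sham.

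The other arm, miR-133a-5p, and the paralog miR-133b-3p were the next most abundant. miR-133b-3p had 83.0 and 53.4 CPM in CKD, against 24.3 and 28.8 CPM in Sham. miR-133a-5p, the strand that is usually discarded, had 44.4 and 33.2 CPM in CKD, against 13.4 and 21.2 CPM in Sham. For both strands the groups did not overlap on the deposited scale, and CKD 1 was the highest library, as it was for miR-133a-3p.

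miR-1a-3p, the strand shared by both miR-1a hairpins, was scarce beside miR-133a-3p although the hairpins of each locus are neighbours. It had 12.15 and 16.6 CPM in CKD, from 213 and 276 reads, against 7.76 and 10.7 CPM in Sham, from 136 and 180 reads. The CKD values were above the Sham values, and here CKD 2 was the highest library. There were 97.9 and 57.4 reads of miR-133a-3p for each read of miR-1a-3p in the CKD libraries, against 64.4 and 57.1 in the Sham libraries. Libraries made by adaptor ligation are known to favour certain RNA ends over others, and the part of such a preference in this gap was not tested.

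The 5p arms, which differ between the miR-1a loci, were mostly those of Mir1a-1 on chromosome 2. miR-1a-1-5p had 37 and 24 reads in CKD (2.11 and 1.44 CPM), against 14 and 13 reads in Sham (0.80 and 0.77 CPM). miR-1a-2-5p had 3 and 6 reads in CKD, against 1 read in each Sham library. Summed over libraries, the CKD-to-Sham ratio of miR-1a-2-5p was 4.53 on the deposited scale, with an exact 95% interval from counting alone of 0.937 to 43.1, so no difference was detectable at this depth. With TMM scaling its mean level was 0.155 scaled CPM in CKD and 0.106 in Sham, a ratio of 1.47 with overlapping libraries. For the more abundant miR-1a-1-5p the ratio on the deposited scale was 2.27, with an interval of 1.42 to 3.72 for counting error only, which leaves out the spread between libraries.

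The cardiac and slow muscle strands were rare. miR-499-5p had 24 and 60 reads in CKD (1.37 and 3.60 CPM), against 11 and 30 reads in Sham (0.63 and 1.78 CPM). Its libraries overlapped between the groups, with Sham 2 above CKD 1. miR-208a-3p, the intronic miRNA of the cardiac myosin gene Myh6, had 24 and 20 reads in CKD (1.37 and 1.20 CPM), against 12 and 6 reads in Sham (0.68 and 0.36 CPM), with no overlap between the groups on the deposited scale. miR-208b-3p, from Myh7, had only 2 and 5 reads in CKD, against 3 and 1 in Sham, and the groups overlapped. On the deposited scale the CKD-to-Sham ratio was 2.46 (exact 95% counting interval 1.39 to 4.52) for miR-208a-3p and 1.76 (0.448 to 8.20) for miR-208b-3p. Both directions turned with TMM scaling, where the libraries of both strands overlapped between the groups. There miR-208a-3p had 0.757 and 0.723 scaled CPM in CKD, against 1.42 and 0.517 in Sham, a ratio of means of 0.764. That ratio was 0.547 for miR-208b-3p. miR-133a-3p, miR-133b-3p, miR-133a-5p and miR-1a-3p kept this order in every library. Below them in mean level, miR-499-5p, miR-1a-1-5p and miR-208a-3p followed each other with overlapping libraries, as did miR-1a-2-5p, miR-208b-3p and miR-206-3p.

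miR-206-3p, the skeletal muscle member of the miR-1 seed family, was almost absent from the reads. It had 4 and 5 reads in CKD (0.23 and 0.30 CPM), against 1 read and no read in Sham. A count of 0 in the second Sham library allows up to 0.178 CPM, for counting error only. On the deposited scale the CKD-to-Sham ratio was 9.05, with an exact 95% counting interval of 1.25 to 397 that rests on a single Sham read. With TMM scaling it stood at 0.127 and 0.181 scaled CPM in CKD, against 0.125 and 0 in Sham, a ratio of means of 2.46. Both CKD libraries lay above both Sham libraries on that scale, by the narrow gap of 0.127 to 0.125. Entries outside the members, such as miR-221-3p and miR-29a-3p, had the same order, and its share over all entries was not counted. The neighbour of miR-206-3p on chromosome 1, miR-133b-3p, had 1456 and 890 reads in the same CKD libraries and 425 and 486 in the same Sham libraries. How reads shared with miR-133a-3p were assigned bears on these counts.

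**Figure D1:**
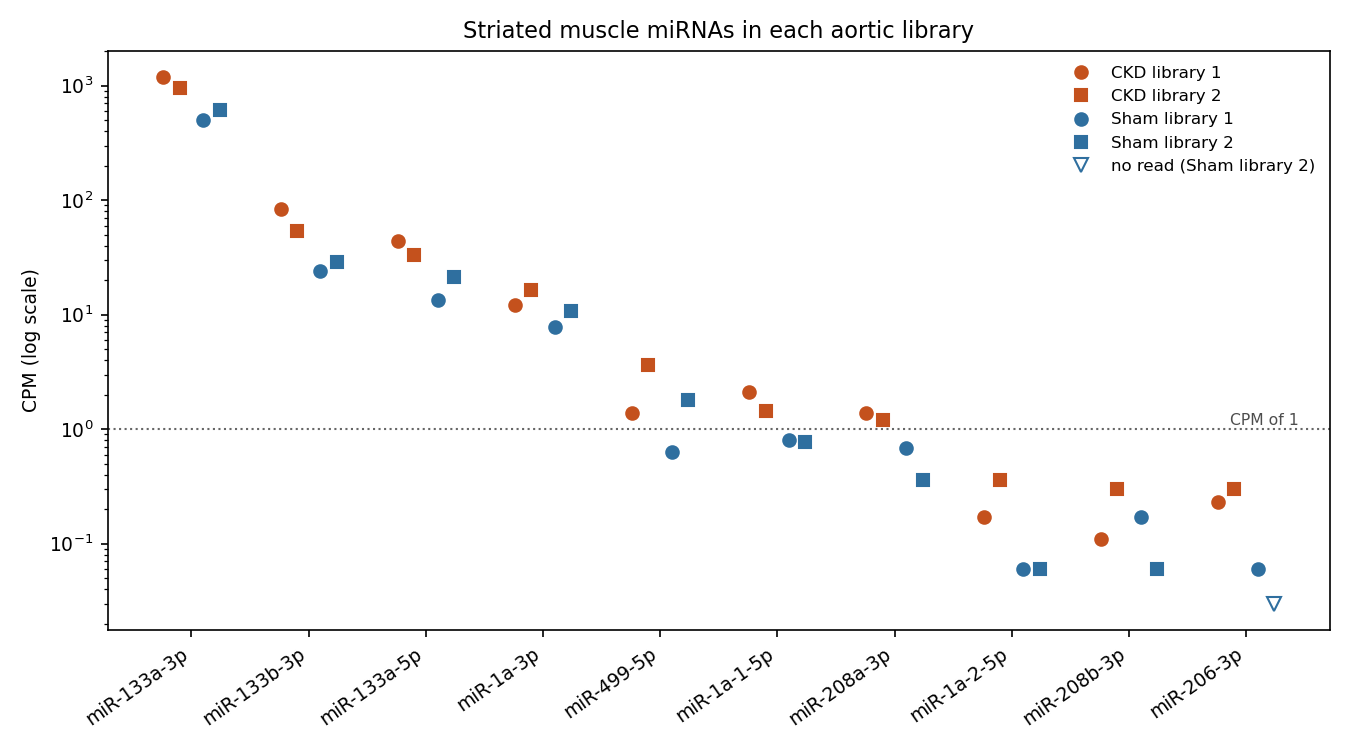
CPM of each striated muscle miRNA (log axis) in the 2 CKD and 2 Sham libraries, ordered by mean level, with an open triangle, set at an arbitrary height, for the library with no read. miR-133a-3p stands between 499.7 and 1189 CPM and the last 3 members stay at or below 0.36 CPM in every library.

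Of the 10 members, 8 had both CKD libraries above both Sham libraries on the deposited scale and 2 overlapped, miR-208b-3p and miR-499-5p. Over all 1152 entries with reads 58.2% had the same order. The 6 members with a mean of at least 1 CPM entered the test across all entries. miR-1a-2-5p, miR-206-3p, miR-208a-3p and miR-208b-3p, with means of 0.163, 0.148, 0.902 and 0.160 CPM, fell below that filter. Of the 6 tested, 5 did not overlap, where 91.2% of all tested entries were likewise higher in both CKD libraries.

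On the deposited scale the 3 miR-133 strands rose in CKD, and each lay below the rise of the median entry. By limma on log2(CPM + 1) with Benjamini-Hochberg adjustment over all 479 entries, 3 of 6 tested members passed as higher and none as lower, against 82.9% of all tested entries higher and 1.04% lower. The members were thus called higher no more often than the entries at large, and 3 of 6 had an unadjusted p under 0.05 with a higher level, against 84.8% of all tested entries. The log2 difference was 1.30 for miR-133b-3p (SE 0.38, limma adjusted p = 0.0089), 1.14 for miR-133a-5p (SE 0.37, limma adjusted p = 0.014) and 0.94 for miR-133a-3p (SE 0.39, limma adjusted p = 0.041). All 3 differences turned negative with TMM scaling. miR-1a-3p lay at 0.59 (95% interval -0.11 to 1.28), miR-1a-1-5p at 0.63 (-0.09 to 1.34) and miR-499-5p at 0.63 (-0.24 to 1.51), none of them past the threshold. The median of the 6 was 0.79, against 1.34 over all tested entries. Leaving out CKD 1, CKD 2 or Sham 1 ended all 3 miR-133 calls (limma adjusted p from 0.26 to 0.37, from 0.077 to 0.23 and from 0.060 to 0.072). Their differences stayed between 0.78 and 1.62 in those fits, where the lone library of a group is assumed to vary like the other group, and all 3 calls held without Sham 2. Other members passed in place of the miR-133 strands in such fits. Without CKD 1 miR-499-5p was higher, at 1.11 (limma adjusted p = 0.024), and without CKD 2 miR-1a-1-5p was higher, at 0.80 (limma adjusted p = 0.025). miR-499-5p ranged from 0.15 to 1.11 when a library was left out. Without a filter on low values the miR-133 strands also missed the threshold (limma adjusted p from 0.051 to 0.076).

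Relative to most entries, all 6 tested members lay below 0 in CKD and none passed the threshold. miR-1a-3p was the lowest at -0.86 (SE 0.21, 95% interval -1.43 to -0.30, limma adjusted p = 0.085). On this scale it stood at 6.72 and 9.98 scaled CPM in the CKD libraries, against 16.2 and 15.3 in the Sham libraries, without overlap. miR-133a-3p followed at -0.64 (SE 0.15, 95% interval -1.05 to -0.23, limma adjusted p = 0.085), with 657 and 573 scaled CPM in CKD, against 1044 and 876 in Sham. Both differences were larger than their spread between libraries, yet neither held after adjustment over all entries.

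miR-133a-5p lay at -0.38 (95% interval -0.80 to 0.04), and its 24.5 and 20.0 scaled CPM in CKD were below the 27.9 and 30.5 in Sham. miR-133b-3p at -0.25 (-0.85 to 0.36), miR-499-5p at -0.28 (-1.35 to 0.78) and miR-1a-1-5p at -0.24 (-0.88 to 0.41) overlapped between the groups. The intervals of these 4 hold 0 as well as differences of the size seen for miR-133a-3p. The median of the 6 was -0.33, against -0.00083 over all tested entries, where 50.1% lay below 0. limma called 0 of 6 members, against 1.88% of all tested entries higher and 5.85% lower, and 2 of 6, miR-1a-3p and miR-133a-3p, had an unadjusted p under 0.05 with a lower level, against 15.2% of all tested entries. Groups without overlap and lower in CKD were seen for 3 of the 6, against 31.5% of all tested entries. The quasi-likelihood test of edgeR, run on recovered whole reads, likewise called 0 of 6, against 1.67% of entries higher and 4.80% lower. DESeq2 called miR-133a-3p lower (log2 difference -0.61, DESeq2 adjusted p = 0.0015), where it called 5.43% of entries higher and 10.0% lower, and it gave 2 of the 6, miR-1a-1-5p and miR-499-5p, no adjusted p.

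**Figure D2:**
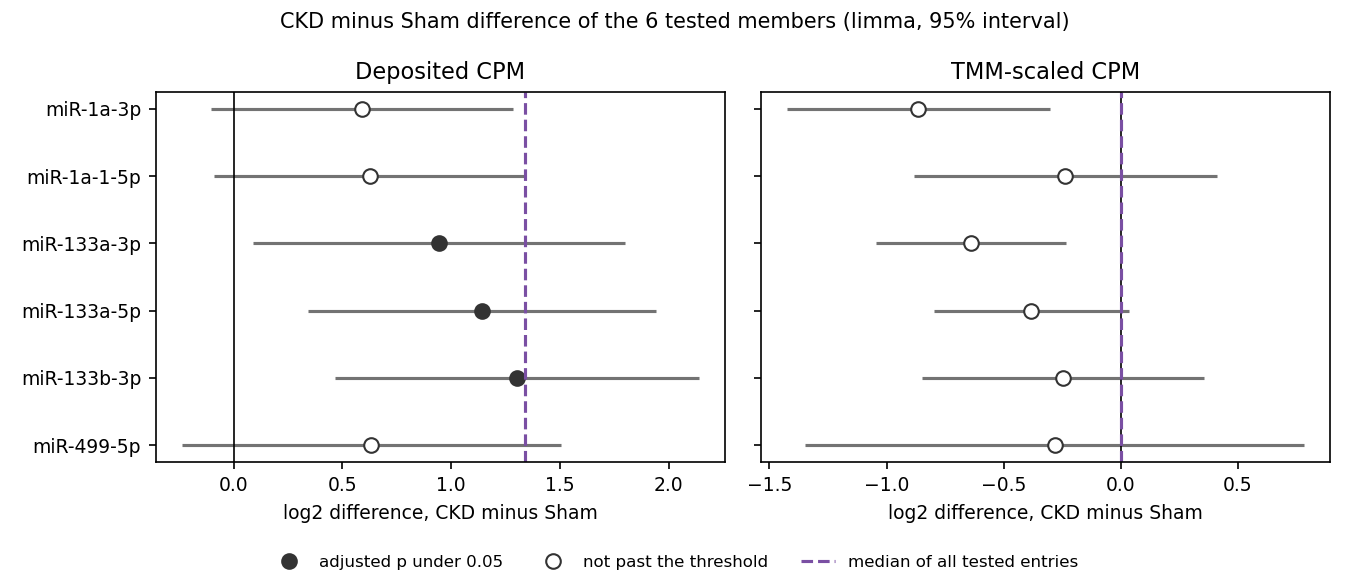
log2 difference, CKD minus Sham, of the 6 tested members with its 95% limma interval, on deposited CPM (left) and TMM-scaled CPM (right), with the median of all 479 tested entries as a dashed line. On the left all 6 lie between 0 and the median of 1.34, and on the right all 6 lie below 0, from -0.86 to -0.24.

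**Figure D3:**
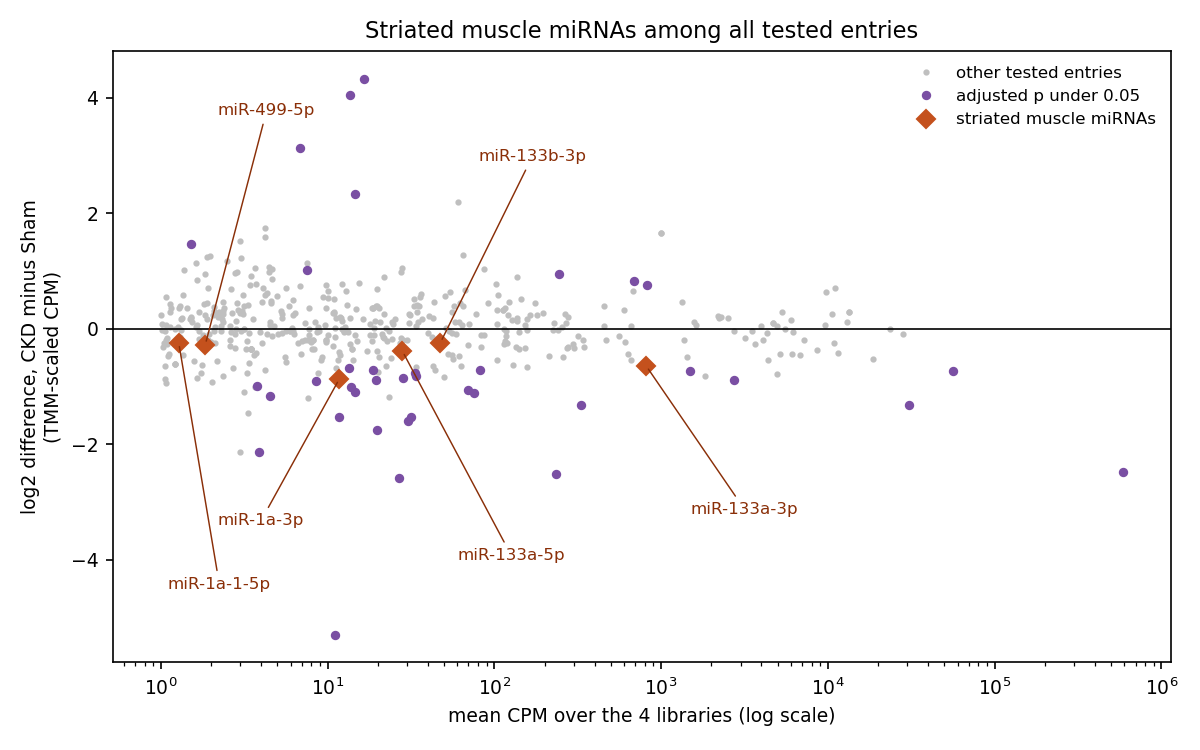
log2 difference of TMM-scaled CPM, CKD minus Sham, against mean CPM (log axis) for the 479 tested entries, with the striated muscle miRNAs as diamonds. The diamonds lie inside the cloud of entries below 0, and the entries past the threshold include no member.

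Ratios between members within a library do not depend on the scaling between libraries. There were 14.3 and 17.8 reads of miR-133a-3p for each read of miR-133b-3p in CKD, against 20.6 and 21.2 in Sham, so miR-133b-3p was more abundant relative to miR-133a-3p in each CKD library than in either Sham library. This ratio was examined after the values were seen and was not tested, and the assignment of shared reads bears on it. Between the arms, there were 26.8 and 28.6 reads of miR-133a-3p per read of miR-133a-5p in CKD, against 37.4 and 28.7 in Sham, where Sham 1 alone stood apart. The log2 difference of the arm ratio was -0.24 (exact two-sided permutation p = 0.33, adjusted p = 0.44 over 4 ratios), and -0.053 without Sham 1.

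The ratio of miR-1a-3p to miR-133a-3p had a log2 difference of -0.31 and overlapped between the groups, with CKD 1 low and CKD 2 at the level of Sham 2 (exact permutation p = 0.67, adjusted p = 0.67). Without CKD 1 the difference was 0.08 and without CKD 2 it was -0.69. miR-1a-1-5p stood at 12.3 and 4.00 reads per read of miR-1a-2-5p in CKD, against 14.0 and 13.0 in Sham, a log2 difference of -0.94 that rests on 1 to 6 reads of the rarer strand (exact permutation p = 0.33, adjusted p = 0.44). It was -1.75 without CKD 1 and -0.13 without CKD 2. Set against miR-145a-5p of contractile smooth muscle, miR-1a-3p differed by -0.21 on the log2 scale (exact permutation p = 0.33, adjusted p = 0.44), by -0.066 without CKD 1 and by -0.36 without CKD 2. With 2 libraries a group, none of these tests could go below 0.33.

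**Figure D4:**
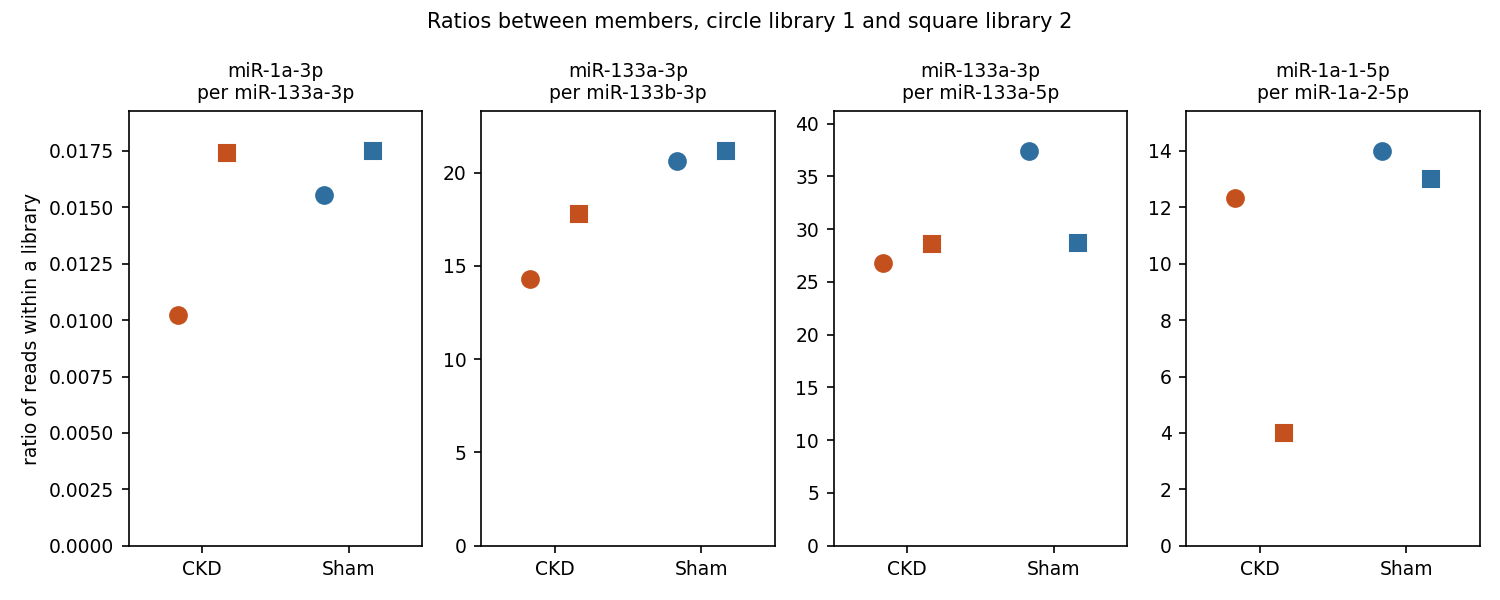
Ratios of reads between members within each library, from 0, with CKD left of Sham, circles for library 1 and squares for library 2. The groups overlap for miR-1a-3p per miR-133a-3p, while miR-133a-3p per miR-133b-3p stands at 14.3 and 17.8 in CKD and at 20.6 and 21.2 in Sham.

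The entries with profiles most like those of the leading members were taken as the closest centred log2(CPM + 1) profiles over the 4 libraries, among 249 other miRNAs with a mean of at least 10 CPM. For miR-1a-3p these were let-7i-5p, miR-28a-3p and miR-145a-5p, at root mean square distances of 0.14, 0.15 and 0.16, where the median candidate was at 0.55. miR-133a-3p was closest to miR-125b-2-3p, miR-345-3p and miR-1981-5p, at distances of 0.03, 0.04 and 0.06 with a median candidate at 0.37. With 4 libraries such likeness is a description of these profiles, and since both groups entered it, a similar difference between CKD and Sham follows from the choice.

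The miRNAs with a described role in muscle cells but a wide expression lay mostly above 0 on the scaled values. All 23 listed were matched and 22 were tested, and all 22 rose in deposited CPM (median log2 difference 1.85), as did 82.9% of all tested entries. miR-486a-5p and miR-486b-5p had identical values and count as 2 of the 22. Relative to most entries the median was 0.27 and 6 of 22 lay below 0, against 50.1% of all tested entries. There 2 rose and none fell, against 1.88% of all tested entries higher and 5.85% lower. They are miR-29b-3p, known to repress collagen genes, at 0.95 and miR-221-3p, which favours smooth muscle proliferation, at 0.76 (limma adjusted p = 0.038 and 0.039). The difference between this list and the striated muscle miRNAs was not tested. In the contractile smooth muscle list, miR-143-3p at -2.48 and miR-145a-5p at -0.73 fell on the same scale (limma adjusted p = 0.012 and 0.044), while miR-145b (0.65) and miR-145a-3p (0.22) lay above 0 and miR-143-5p (-0.81) below it, none of them past the threshold. The list's median over 5 tested entries was -0.73. In deposited CPM 3 of the 5 rose and miR-143-3p alone fell. miR-145a-5p was among those that rose, by 0.85 (limma adjusted p = 0.0043), so its direction turns with the scaling.

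Markers of other cells and tissues also varied between libraries. On the TMM scale the 5 red cell miRNAs summed to 819 and 4861 scaled CPM in CKD and 619 and 1512 in Sham. The sum holds the reads of miR-486 under both of its names, which are also in the list of muscle roles. As log2 differences, each miR-486 name lay at 1.65 (SE 1.06), miR-144-3p at 0.61, miR-451a at 0.056 and miR-144-5p at -0.19. The 5 leukocyte miRNAs summed to 235 and 286 in CKD and 172 and 330 in Sham. The 4 adipocyte-associated miRNAs summed to 1973 and 1605 in CKD and 1463 and 1680 in Sham. Of these 4, miR-378a-3p was the most abundant in every library and had a log2 difference of 0.46. It is also in the list of muscle roles. The other 3, miR-193b-3p (-0.47), miR-365-3p (-0.20) and miR-455-5p (-0.75), lay below 0. The 2 endothelial miRNAs stood at 5522 and 5884 in CKD and 6056 and 4903 in Sham. miR-122-5p, miR-192-5p and miR-194-5p, miRNAs of liver or kidney, summed to 372 and 272 in CKD and 206 and 236 in Sham. Every listed marker had reads in all 4 libraries, and none of the 5 lists had a member past the threshold with TMM scaling. The part of these cell types and tissues in the values of the striated muscle miRNAs was not tested.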

How the data were processed

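Per the labels' protocols, a gel slice of small RNA (18 to 30 nucleotides) from 4 pooled samples went into each library by adaptor ligation and amplification. Molecular identifiers are not mentioned, so a read is not a molecule. The submitters' processing notes name Bowtie and GRCm38, with no version. The unit is not in the labels. Since the deposited values of a library sum to about 1000000, they were taken as CPM. In 3 of 4 files names stand above values in 1 column, and they were paired by position. Every value above 0 (100%) lay within 0.005 CPM of a whole number of reads. The libraries of a group differed by far more than sampling noise. Nothing says that they are separate biological samples, so p-values measure only the spread between them.

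limma 3.58.1 with a mean-variance trend was run on log2(CPM + 1) for entries with a mean of at least 1 CPM. Only the group entered the model, and the threshold was 0.05 after Benjamini-Hochberg adjustment. A pseudocount of 1 understates changes of low entries. TMM factors (edgeR 4.0.16) were 1.81 and 1.66 in CKD and 0.479 and 0.696 in Sham. edgeR with the same factors and DESeq2 1.42.0 with its own scaling were run on whole reads as alternatives. Median-of-ratios and upper-quartile scaling were tried as well. The test was also run on simulated counts, with as many rises as falls and the same dispersion for all entries. That setting is simpler than these libraries, so no support is drawn from it. Shares have Wilson 95% intervals, and a count of 0 has a floor of 3 reads. All 10 members are named, with the closest profiles and the members of fixed lists past the threshold. Members and lists were chosen with earlier results of these data known. R 4.3.3 and Python 3.11.15 were used. Coordinates come from GENCODE annotation of GRCm38 and sequences from RefSeq.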

Additional observations from a re-analysis of the deposited data

How the results depend on the processing

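On the deposited scale the 3 calls among members became 1 without a filter on low values, which was then miR-206-3p, and from 0 to 3 when a library was left out. The single call was miR-499-5p without CKD 1 and miR-1a-1-5p without CKD 2. The calls over all entries, 402 with all libraries, became 241 with a mean of at least 10 CPM, where fewer were tested, and from 137 to 384 when a library was left out. With TMM scaling the count of 0 members became 1, miR-133a-3p, with a mean of at least 10 CPM (limma adjusted p = 0.045). It was also 1, again miR-133a-3p, with DESeq2, which uses its own scaling. The 37 calls over all entries became 18 without a filter, 74 with DESeq2, and from 0 to 7 when a library was left out, with 0 without CKD 1 or CKD 2. Each fit without a library leaves a group with a lone library and no spread of its own. The cause of the drop was not tested. With the replicate number as a block, the 37 calls became 10, and the members' calls became 2 on the deposited scale, where miR-133a-3p was lost (limma adjusted p = 0.11). Deviations of libraries with the same number correlated at 0.12 across 479 entries. They share only a number, so the block is not read as a pairing. With TMM scaling miR-499-5p ranged from -0.66 to 0.12 when a library was left out, above 0 without CKD 1 (0.12) or Sham 2 (0.03), and miR-133b-3p from -0.50 to 0.010, above 0 without CKD 2. The summed CPM of the members differed by 587, by 71.9 without miR-133a-3p and by -367 with TMM scaling, and from 451 to 724 when a library was left out. Over all alternatives together, single members stayed on the same side of the threshold in 43 of 58 fits on the deposited scale. With TMM or another scaling relative to most entries, DESeq2 among them, they did so in 78 of 80. For members with fewer than 10 reads a group, depth limits any comparison.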

Other observations

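Of 8 other arms and paralogs of the same hairpin families that were looked up by name, 3 matched an entry, and all 3 were rare. miR-208a-5p, the opposite arm of the Myh6 intronic hairpin, had 4 and 12 reads in CKD and 1 read in each Sham library. miR-1b-3p, from a hairpin annotated on the strand opposite to Mir1a-2, had 3 and 6 reads in CKD and none in either Sham library. miR-1b-5p had 4 reads in CKD 1 and 1 in Sham 1, and none in the other 2 libraries. None of them reached a mean of 1 CPM, so none was tested.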
